A study of Mus musculus with 8 samples.

Results

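DNA replication and S phase genes were followed through mouse blood stem and progenitor cells around birth. The set held 42 named genes of the 32285 genes counted, taken as a fixed list of replication and S phase genes, with their raw counts of unique molecular identifiers (UMIs, tags that mark single captured RNA molecules) read in all 6 gene expression libraries. Sorting kept Epcr+Lin-Sca-1+Kit+ cells, a gate that enriches hematopoietic stem cells, and each library was made by droplet single-cell RNA sequencing. Tissue libraries of P2 liver, P2 spleen and P2 bone marrow each came from 1 pool of 7 wild-type mice at day 2 after birth (batch 1), and 1 wild-type library came from E19 (batch 2). The title of the E19 library names bone marrow and its tissue label fetal liver, so it is called the E19 library here. Batch 3 held 2 tubes from 2 pups of genotype Tppp3CreER LSLTdTomato at P2, in which tamoxifen at P0 switches on tdTomato in cells that drive CreER from Tppp3. In tube 1 positive cells came from pup 1 and negative ones from pup 2, in tube 2 the other way round, and hashtag antibodies told pups and tissues (bone marrow, spleen) apart. Within a pup the positive and negative cells therefore lay in different tubes, and the positive sorts were small, with 145 cells of pup 1 and 180 of pup 2 against 5156 negative cells of pup 1 and 5500 of pup 2 per the labels.

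Before a cell copies its DNA, the MCM ring of Mcm2 to Mcm7 is loaded at origins in G1 with the help of Cdc6. Cyclin E (Ccne1, Ccne2) and E2F factors then drive entry into S phase, Cdc45 and the GINS subunits turn the ring into the working helicase, and polymerases with the sliding clamp Pcna copy both strands. Ribonucleotide reductase (Rrm1, Rrm2) and thymidylate synthase (Tyms) supply nucleotides, clustered histone genes and their RNA-binding protein Slbp supply histones, and the repair and fork proteins of the set (Exo1, Clspn, Blm, Rad51ap1, Usp1, Brip1, Tipin) deal with stalled or broken forks. The 6 role groups used below are the helicase, licensing and G1/S control, polymerase and clamp, nucleotides and uracil, chromatin and histone supply, and repair and fork protection.

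E2F sites near the start of transcription are the best known control element of these genes, so the promoter windows were read first. RefSeq windows (GRCm38.p6, 250 bases before to 50 bases after the annotated start) were matched for 33 of the 42 members and not for Mcm4, Gins1, Gins2, Ccne2, Rfc2, Exo1, Usp1, Dscc1 and Tipin. At least 1 of the E2F words TTTCCCGC, TTTGGCGC, TTTCGCGC and TTTGCCGC, on either strand, lay in the windows of 12 of the 33 members (36.4%). The same held for 11 of 28 further replication genes (39.3%) and 704 of all 27025 genes with a window (2.61%). The 12 were Mcm3, Mcm5, Mcm6, Mcm7, Cdc6, Dtl, Pola1, Pold3, Uhrf1, Hells, Casp8ap2 and Clspn. CCAAT was found in 23 members (69.7%, against 41.1% of all genes with a window) and GGGCGG in 23 (69.7%, against 38.2%). TTTGAA, the core of the cell cycle homology region of late cell cycle genes, was found in 6 (18.2%, against 20.2%). A match is a run of letters and not a measured binding site. The windows of Cdc6, E2f1 and Mcm7 lie wholly inside the genes as the GENCODE annotation places them. Bases before the GENCODE start of these genes were not read. The windows of Mcm3, Mcm5 and Mcm6 are shown as helicase subunits with these words, and that of Cdc6 as the loader, whose RNA fell in mitotic cells below. Mcm2 fell further there than these helicase subunits, and its window, not shown, held none of the 4 words. Ung is shown as the member with the largest fall, and its window held none of the 4 words. Capitals mark the E2F words, and overlapping words run together.

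Mcm3, chr1:20820263-20820562, minus strand: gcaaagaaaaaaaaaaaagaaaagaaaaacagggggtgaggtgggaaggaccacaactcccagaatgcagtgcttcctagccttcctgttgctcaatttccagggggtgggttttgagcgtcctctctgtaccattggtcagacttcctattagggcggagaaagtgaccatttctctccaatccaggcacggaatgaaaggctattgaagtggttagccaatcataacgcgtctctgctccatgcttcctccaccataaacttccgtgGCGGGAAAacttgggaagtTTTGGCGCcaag

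Mcm5, chr8:75109259-75109558, plus strand: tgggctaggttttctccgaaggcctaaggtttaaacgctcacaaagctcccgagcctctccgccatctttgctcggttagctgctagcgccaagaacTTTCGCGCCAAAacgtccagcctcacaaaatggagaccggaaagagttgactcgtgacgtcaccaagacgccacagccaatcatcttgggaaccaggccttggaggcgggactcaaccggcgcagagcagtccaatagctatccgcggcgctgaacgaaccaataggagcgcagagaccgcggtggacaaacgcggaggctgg

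Mcm6, chr1:128359656-128359955, minus strand: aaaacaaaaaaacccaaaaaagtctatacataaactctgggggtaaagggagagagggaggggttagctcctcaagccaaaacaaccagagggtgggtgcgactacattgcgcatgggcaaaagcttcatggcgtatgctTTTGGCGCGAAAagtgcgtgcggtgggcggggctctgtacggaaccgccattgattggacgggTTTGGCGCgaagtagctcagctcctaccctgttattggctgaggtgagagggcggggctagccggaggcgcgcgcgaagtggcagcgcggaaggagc

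Cdc6, chr11:98907901-98908200, plus strand: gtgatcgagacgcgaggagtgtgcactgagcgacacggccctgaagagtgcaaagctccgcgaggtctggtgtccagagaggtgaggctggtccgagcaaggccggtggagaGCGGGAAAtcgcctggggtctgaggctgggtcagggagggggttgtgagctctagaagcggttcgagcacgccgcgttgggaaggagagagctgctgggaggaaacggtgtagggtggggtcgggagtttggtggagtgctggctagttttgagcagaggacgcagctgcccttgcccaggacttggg

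Ung, chr5:114130185-114130484, plus strand: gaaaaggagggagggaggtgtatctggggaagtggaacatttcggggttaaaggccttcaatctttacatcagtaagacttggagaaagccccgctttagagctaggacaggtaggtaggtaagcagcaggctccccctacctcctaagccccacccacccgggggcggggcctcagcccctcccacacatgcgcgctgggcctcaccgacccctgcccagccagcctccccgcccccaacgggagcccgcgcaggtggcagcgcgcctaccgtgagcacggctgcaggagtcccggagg

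Counted from the annotated start, the first bases of the words lay at +20 and +39 in Mcm3, at -153 and -149 in Mcm5, at -110, -106 and -47 in Mcm6 and at -138 in Cdc6. In Mcm5 and Mcm6 the overlapping words lay on opposite strands.

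The 6 libraries held 2838 to 11323 barcodes and 56010320 to 87254828 UMIs, of which 37147 cells passed (at least 1000 genes, at least 2000 UMIs, at most 10% mitochondrial UMIs), and library pairs shared 0 to 34 barcodes. Kept cells had medians of 20120 and 20492 UMIs in the tubes against 6523 to 8275 in the other libraries, so levels were read in cells thinned to 5000 UMIs, which left out shallower cells. Classes were gated by 8 markers each (at least 3 detected and at least 2 more than of any other class), and no marker is a member. Stem-gated cells numbered 6057 in E19, 2302 in tube 1, 1502 in tube 2, 1077 in P2 spleen, 170 in P2 liver and 947 in P2 bone marrow. They made up 74.9%, 86.8% and 65.5% of the cells in E19, tube 1 and tube 2, but 17.5% in P2 spleen, 4.29% in P2 liver and 18.9% in P2 bone marrow. In these pools erythroid-gated cells, which a lineage-negative sort is meant to leave out, made up 31.7% in P2 spleen, 14.6% in P2 liver and 12.4% in P2 bone marrow. All 7 stem markers outside the gate were detected in each library, and stem-gated cells summed 2345 to 3880 CPM (UMIs scaled to a fixed library total) of the 8 gate markers. They summed 72.7 to 306 CPM of granulocyte progenitor, 310 to 448 CPM of endothelial, 5.94 to 20 CPM of hepatocyte and 0 to 14.5 CPM of stromal markers. In E19, clustered histone transcripts, which are no members, summed 14.6 UMIs per 10000 in stem-gated cells, against 45.1 to 65.7 in the other 5 libraries.

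Stem-gated cells carried S phase transcripts in every library. At equal depth the 42 genes together took 32.9 UMIs per 10000 in E19 (95% exact Poisson interval 32.7 to 33.1), 34.7 in P2 liver (33.4 to 35.9), 43.5 in P2 spleen (42.9 to 44.1) and 49.0 in P2 bone marrow (48.4 to 49.6). The 2 pup tubes stood at 47.5 and 44.0 per 10000. The median stem-gated cell had 13 member UMIs in E19, 13 in P2 liver, 20 in P2 spleen and 23 in P2 bone marrow, of 5000, and 25 or more were found in 23.8% of the cells in E19, 27.6% in P2 liver, 38.5% in P2 spleen and 47.5% in P2 bone marrow. These intervals cover counting error only, since each tissue is 1 library and PCR copies are removed only as far as UMIs allow.

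Relative to P2 bone marrow, the summed level was 0.671 in E19 (0.661 to 0.681), 0.707 in P2 liver (0.681 to 0.735) and 0.887 in P2 spleen (0.871 to 0.904). All 42 members lay below the bone marrow level in E19, and 26 of them were more than 1.5-fold lower, against 11.1% of 12775 genes with at least 50 UMIs in the 2 libraries together, of which 17.2% were more than 1.5-fold higher. The median member ratio was 0.638 in E19, beside 1.01 over those genes. In P2 liver all 42 were lower too and 15 passed 1.5-fold, against 5.25% of 9295 genes, with 10.1% as much higher (median ratio 0.712, beside 1.05). In P2 spleen 39 were lower and none passed 1.5-fold, against 1.76% of 10408 genes, with 2.39% higher (median ratio 0.878, beside 0.948). Age, batch, day and Cell Ranger version all differ between E19 and P2, tissue may too given the 2 labels of E19, and these cannot be told apart. The share passing the mitotic gate (at least 4 of 12 G2/M genes detected) moved in the same order. It was 21.2% of stem-gated cells in E19, 28.2% in P2 liver, 35.7% in P2 spleen and 40.3% in P2 bone marrow. The gate counts detected genes, so mitotic names the gate here and below, not cells seen in mitosis. The part of this share in the result was not tested. For P2 liver the difference did not last at 10000 UMIs, where the ratio was 1.01, and at 3000 UMIs it was 0.880, while that of E19 was 0.902 at 10000 UMIs.

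The members did not all stand equally low in E19. Rrm2, the small subunit of ribonucleotide reductase (chr12:24708241-24714146, GRCm38), had 24.8 CPM in E19, 41.2 in P2 liver, 48.3 in P2 spleen and 72.02 in P2 bone marrow at thinned depth, which puts its E19 to bone marrow ratio at 0.344 (0.302 to 0.392). Cyclin E1, Ccne1, was at 10.8 CPM in E19, 14.1 in P2 liver, 21.7 in P2 spleen and 22.2 in P2 bone marrow. The helicase subunit Mcm2 stood at 72.2 CPM in E19, 68.2 in P2 liver, 75.6 in P2 spleen and 80.5 in P2 bone marrow, a ratio of 0.897 (0.804 to 1.00) for E19. Pcna, the clamp, had a ratio of 0.892 (0.834 to 0.955) in E19. Rrm2, Mcm2 and Pcna were picked here after their values were seen. Hells, a chromatin remodeller needed for DNA methylation, was the 1 member whose interval lay above bone marrow in spleen, at 223 CPM in P2 spleen and 197 CPM in P2 bone marrow (ratio 1.13, 1.04 to 1.23).

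The members with the most UMIs in stem-gated cells of P2 bone marrow were the histone chaperone Nasp, the polymerase alpha subunit Pola1, the helicase subunits Mcm3 and Mcm6 and the fork protein Tipin. Nasp stood at 229 CPM in E19, 218 in P2 liver, 290 in P2 spleen and 307 in P2 bone marrow, and Pola1 at 248 CPM in E19, 231 in P2 liver, 251 in P2 spleen and 292 in P2 bone marrow. Those with the fewest were Ccne1, Ccne2, the clamp loader subunit Dscc1, Cdc45 and E2f1, of which Cdc45 stood at 24.9 CPM in E19, 28.2 in P2 liver, 32.1 in P2 spleen and 38.0 in P2 bone marrow. A UMI of Nasp was found in 59.7% of E19 and 74.0% of P2 bone marrow stem-gated cells, and a UMI of Ccne1 in 5.04% of E19 and 10.0% of P2 bone marrow stem-gated cells. Tagged ends of transcripts are counted, so levels of different genes were not ranked further.

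S phase RNA also differed among the gated classes, as the plot of summed levels by class and library shows. Erythroid-gated cells had 94.1 member UMIs per 10000 in tube 2, 58.7 in E19, 68.7 in P2 spleen, 71.3 in P2 liver and 69.6 in P2 bone marrow, above the stem-gated cells in each of the 5 libraries. B-gated cells with surrogate light chain UMIs, a mark of dividing pro-B and large pre-B cells, had 55.6 in E19, 64.2 in P2 spleen, 60.0 in P2 liver and 57.2 in P2 bone marrow, and B-gated cells without them 18.9 in tube 2, 42.8 in P2 spleen, 51.0 in P2 liver and 52.4 in P2 bone marrow. Granulocyte progenitor-gated cells stood at 32.4 to 47.9 and monocyte- and dendritic-gated cells at 23.0 to 47.5. Neutrophil-gated cells, which passed the cell number needed in tube 2 alone, were lowest with 7.97 per 10000 and a median of 1 member UMI.

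**Figure D1:**
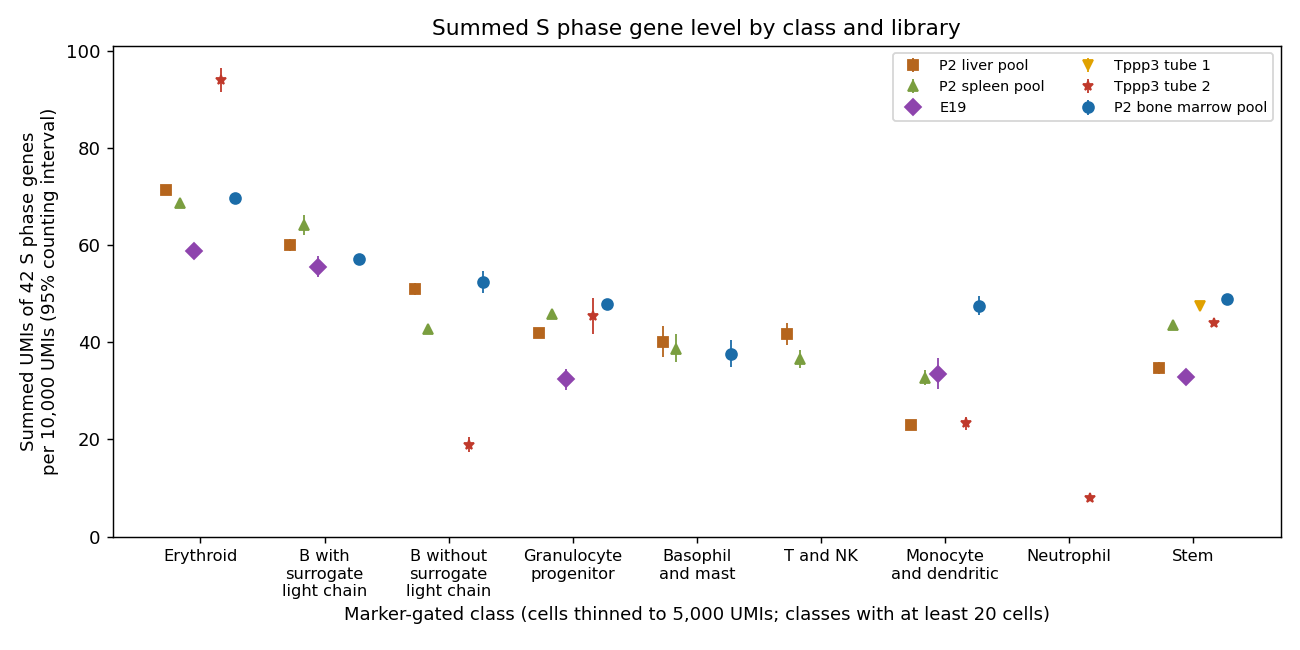
Summed UMIs of the 42 S phase genes per 10000 UMIs (y axis) in each gated class (x axis), at 5000 UMIs per cell, with 1 point per library and exact 95% Poisson bars. Erythroid-gated cells lie highest in each of the 5 libraries that hold them, 58.7 to 94.1, and the neutrophil-gated cells of tube 2 lowest at 7.97.

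Shares of cells with a UMI were read against the neutrophil-gated cells of the same tube, a class that leaves the cell cycle as it matures. In tube 2, Mcm5 was seen in 60.5% of erythroid-gated and 33.6% of stem-gated cells, beside 5.80% of neutrophil-gated cells. Rrm2 was seen in 82.4% of erythroid-gated and 15.7% of stem-gated cells, beside 10.1% of neutrophil-gated cells. Ccne1 was seen in 57.1% of erythroid-gated and 7.06% of stem-gated cells, beside 3.38%. The medians of UMIs before thinning were 43062 in erythroid-gated, 21838 in stem-gated and 9025 in neutrophil-gated cells. All 3 shares were above those of the neutrophil-gated cells, and the share of stem-gated cells with Rrm2 or Ccne1 lay closest to them.

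Erythroid-gated against stem-gated cells gave the widest difference. In raw counts summed per class and library (5 libraries with both, edgeR quasi-likelihood test with Benjamini-Hochberg adjustment over 14390 genes), 39 of 42 members rose and none fell, where 34% of all genes rose and 38.6% fell. The median member log2 fold change was 1.12, beside -0.08 over all genes. All 10 helicase, all 6 licensing and all 8 polymerase and clamp members rose, and Ung (-0.20), Hells (0.28) and the helicase Brip1 (-0.15) were the 3 not called. The p-values measure the spread between library sums, part of which may be technical. In 33 members the erythroid-gated CPM was higher in every library, and in 21 of them the classes did not overlap. These counts were made for members alone, so no share of all genes stands beside them. Ung and Brip1, not called in the fit, had a lower CPM in erythroid-gated cells in all 5 libraries without overlap.

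Ccne1, whose protein with Cdk2 starts S phase (chr7:38097984-38107534), had 203 CPM in erythroid-gated cells of tube 2, 104 in E19, 141 in P2 spleen, 152 in P2 liver and 140 in P2 bone marrow. Stem-gated cells had 16.6 CPM in tube 2, 11.4 in E19, 21.1 in P2 spleen, 14.2 in P2 liver and 21.2 in P2 bone marrow, far below with no overlap, and the log2 fold change was 3.57 (SE 0.21, adjusted p = 6.97e-15). Rrm2 had 449 CPM in erythroid-gated cells of tube 2, 198 in E19, 275 in P2 spleen, 272 in P2 liver and 267 in P2 bone marrow, against stem-gated cells with 52.9 CPM in tube 2, 28.6 in E19, 54.5 in P2 spleen, 49.4 in P2 liver and 76.1 in P2 bone marrow. It rose by 2.95 (SE 0.17, adjusted p = 9.24e-15), again without overlap. Cdc6, the MCM loader, averaged 124 ± 44.3 CPM in erythroid-gated cells (SD, n = 5 libraries), against 38.0 ± 8.88 CPM in stem-gated cells, a log2 fold change of 2.13 (SE 0.18). The flap nuclease Fen1 rose by 1.97, Slbp by 1.71, Ccne2 by 1.67, Pcna by 1.47, Mcm5 by 1.28 and Uhrf1, which reads hemimethylated DNA behind the fork, by 0.84, and Uhrf1 alone of these had overlapping groups. The called members with the smallest folds were Wdr76 (0.42), the clamp loader Rfc2 (0.46), the histone pre-mRNA processing factor Casp8ap2 (0.51), Exo1 (0.52) and Pola1 (0.58).

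Of 36 further replication genes that are no members, 32 rose and none fell, among them thymidine kinase Tk1 by 1.67 and the licensing factor Cdt1 by 1.57. Cdc7 (0.23), Dnmt1 (0.25), Pold1 (0.24) and Mcmbp (0.07) did not pass. The mitotic gate was passed by 92.4% of erythroid-gated cells of tube 2 and 76.0% of those of E19. In the pools it was passed by 86.2% in P2 spleen, 81.4% in P2 liver and 87.0% in P2 bone marrow. All these shares lay above those of the stem-gated cells (21.2% to 40.3%). Their part in the difference was not tested. The classes differ in RNA makeup, and with the size factors of DESeq2 in place of edgeR's the median of all genes moved by -0.20 on the log2 scale. Under that scaling 37 members were higher and 1, Brip1, lower, with the share of all genes called not given here.

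**Figure D2:**
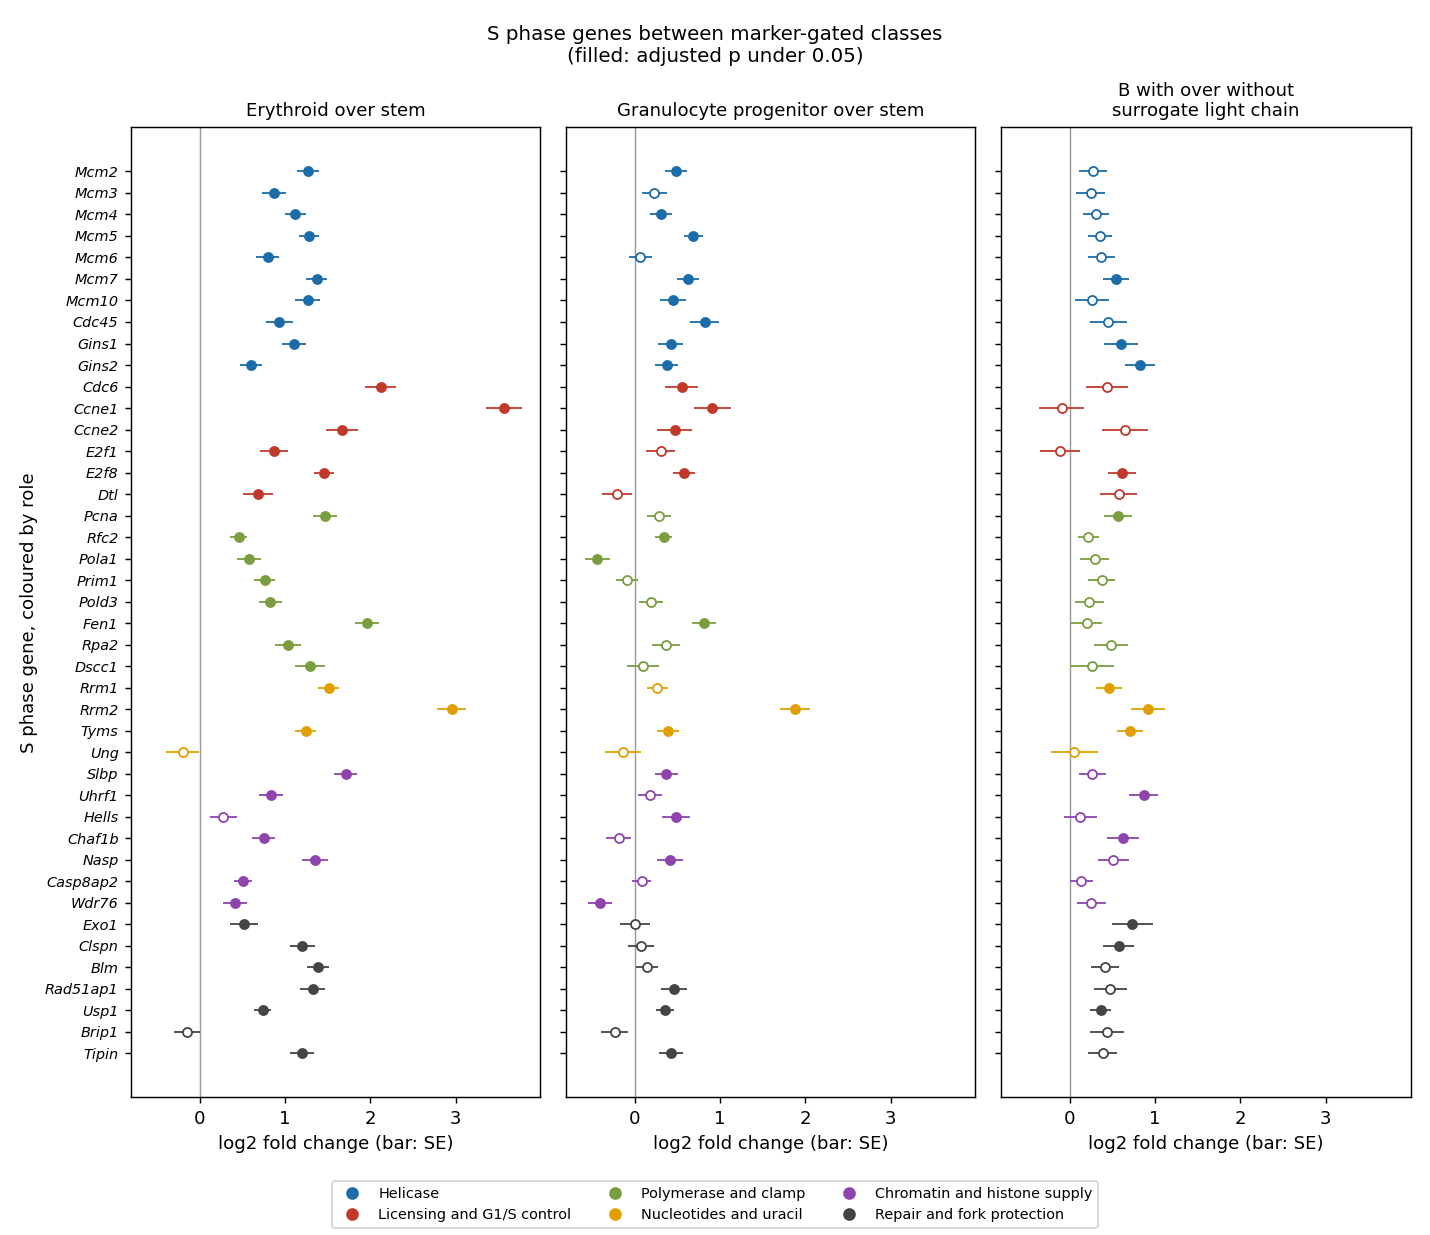
Log2 fold change of each of the 42 members (points, coloured by role) between erythroid-gated, granulocyte progenitor-gated or surrogate light chain B-gated cells and their references, from the summed counts per library. Ccne1 and Rrm2 reach 3.57 and 2.95 in erythroid-gated cells, whereas in granulocyte progenitor-gated cells only Rrm2 passes 1.

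Granulocyte progenitor-gated cells showed a mixed pattern against stem-gated cells. Of the 42 members 22 rose and 2 fell in the same fit (27.6% of all genes rose and 32.1% fell), with a median of 0.35 beside -0.07 over all genes. Rrm2 had 194 CPM in granulocyte progenitor-gated cells of tube 2, 78.9 in E19, 158 in P2 spleen, 160 in P2 liver and 179 in P2 bone marrow, against the 28.6 to 76.1 CPM of stem-gated cells given above, with no overlap (log2 fold change 1.88, SE 0.17, adjusted p = 3.46e-10). Ccne1 rose by 0.91 (SE 0.21, adjusted p = 0.000586), but its CPM was higher in 3 of 5 libraries, with 6.55 to 36.2 CPM in granulocyte progenitor-gated cells overlapping 11.4 to 21.2 CPM in stem-gated cells. Cdc45 (0.82), Fen1 (0.81) and Mcm5 (0.69) followed. Pola1 and Wdr76 fell by 0.44 and 0.40 without overlap: Pola1 stood at 151 to 176 CPM in granulocyte progenitor-gated cells, against 252 to 315 CPM in stem-gated cells.

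Of the 22 members that rose, 8 were helicase members, 4 licensing members and 2, Rfc2 and Fen1, polymerase and clamp members. Cdc6 (0.55), Ccne2 (0.47) and Slbp (0.37) rose, and Pcna (0.29, adjusted p = 0.0835) and Uhrf1 (0.18, adjusted p = 0.281) did not pass. Of the further genes 16 rose, including Cdt1 by 0.69 and Tk1 by 0.43, and 2 fell, Cdc7 by 0.58 and Pole by 0.54. The counts behind this comparison depend on scaling: in plain CPM 7 members were higher in all 5 libraries and 12 lower in all 5. Those CPM counts were likewise made for members alone. The granulocyte progenitor markers themselves took 12271 to 31677 CPM in these cells, against 72.7 to 306 CPM in stem-gated cells, and their part was not tested. Without P2 liver 10 members rose and without P2 spleen 12. The shares of all genes called without these libraries are not given here, so the counts cannot be set against them. Granulocyte progenitor-gated cells per library ranged from 26 to 1153.

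Among B-gated cells, those with surrogate light chain UMIs were set against those without, in the same fit of all classes and libraries. Of the libraries 3 hold both groups. E19 gave a sum only of cells with these UMIs and tube 2 only of cells without, and both entered the estimate through their other classes. In that contrast 13 of 42 members rose and none fell, where 7.19% of all genes rose and 7.71% fell (median 0.40, beside 0.02 over all genes). Rrm2 had 257 CPM in P2 spleen, 239 in P2 liver and 240 in P2 bone marrow in cells with these UMIs, against 120 CPM in P2 spleen, 166 in P2 liver and 166 in P2 bone marrow in cells without, with no overlap (log2 fold change 0.92, SE 0.20, adjusted p = 0.00148). Uhrf1 had 243 CPM in P2 spleen, 252 in P2 liver and 243 in P2 bone marrow, against 123 CPM in P2 spleen, 154 in P2 liver and 180 in P2 bone marrow, again apart (0.87, SE 0.17, adjusted p = 0.000562). Gins2 (0.83), the exonuclease Exo1 (0.74) and Tyms (0.71) rose as well, and Pcna by 0.57. Mcm5 (0.36), Cdc6 (0.44), Ccne2 (0.65), Slbp (0.27) and Ccne1 (-0.09) did not pass. Of the further genes 9 rose, among them Dut by 0.71, Lig1 by 0.60 and Dnmt1 by 0.48. Leaving out P2 spleen left 3 members, P2 liver 8, E19 6 and tube 2 8. The count was 23 with gates at 3000 UMIs, 1 at 10000 UMIs and 5 without the library as a term. The shares of all genes called under these alternatives are not given here.

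Within stem-gated cells the summed level of the 42 genes differed between states set by G2/M genes and by clustered histone UMIs. Mitotic cells (at least 4 of the 12 G2/M genes) carried 34.8 member UMIs per 10000 in E19, 46.4 and 44.2 in tubes 1 and 2, 35.4 in P2 spleen, 31.6 in P2 liver and 39.8 in P2 bone marrow, against 28.4 in E19, 42.5 and 38.5 in tubes 1 and 2, 45.1 in P2 spleen, 29.9 in P2 liver and 49.9 in P2 bone marrow in non-mitotic cells (0 or 1 of them). The summed level was thus higher in mitotic cells in 4 libraries and lower in P2 spleen and P2 bone marrow. Cells with 2 or 3 G2/M genes lay above both in every library, at 56.6 to 74.1 per 10000. Histone-high stem-gated cells, at or above the 75th percentile of clustered histone UMIs in their library, carry the RNA made during DNA synthesis. They had 47.1 to 60.9 per 10000, against 29.4 to 45.7 in histone-low cells, at or below the 25th percentile. Most histone-high cells also passed the mitotic gate, 62.8% (E19) to 82.3% (tube 2), against 2.95% (E19) to 14.5% (P2 bone marrow) of histone-low cells.

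**Figure D3:**
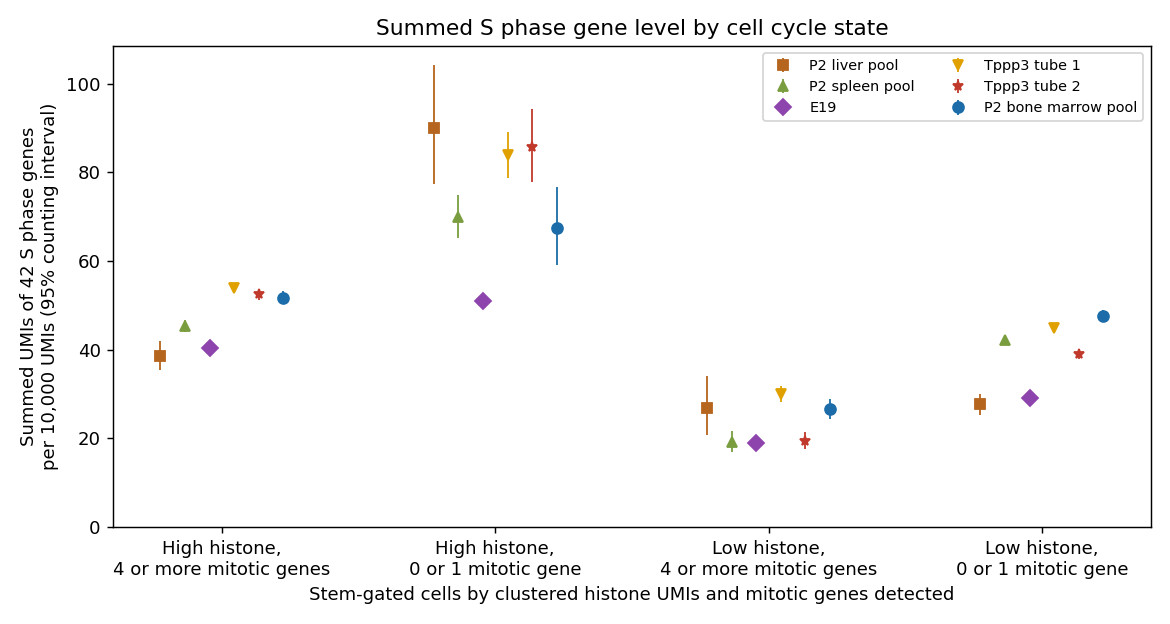
Summed UMIs of the 42 S phase genes per 10000 UMIs (y axis) in states of stem-gated cells (x axis), 1 point per library with exact 95% Poisson bars, at 5000 UMIs per cell. Histone-high non-mitotic cells lie highest among the 4 histone and mitosis states in every library (50.9 to 90.0) and histone-low mitotic cells lowest (19.0 to 30.1).

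Splitting by both marks spread the levels widest. Histone-high non-mitotic cells reached 50.9 per 10000 in E19, 83.8 and 85.8 in tubes 1 and 2, 69.9 in P2 spleen, 90.0 in P2 liver and 67.4 in P2 bone marrow, though this state held only 4 to 164 cells per library. Histone-low mitotic cells held 5 to 70 cells per library and 19.0 in E19, 30.1 and 19.5 in the tubes, 19.1 in P2 spleen, 26.8 in P2 liver and 26.6 in P2 bone marrow. Histone-high mitotic cells (38.6 to 54.0) and histone-low non-mitotic cells (27.7 to 47.6) lay between these in every library.

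Mitotic against non-mitotic stem-gated cells gave calls in both directions. Of the 42 members 14 rose and 15 fell in mitotic cells (6 libraries, 48 to 1287 mitotic and 99 to 4100 non-mitotic cells, 12835 genes, edgeR as above), where 21.5% of all genes rose and 26.5% fell. The median member log2 fold change was -0.04, and -0.03 over all genes. Among the 10 helicase members 5 fell (Mcm2 to Mcm6), 2 rose and 3, Mcm7 included, did not pass, and among the 6 licensing and G1/S members 5 fell (Cdc6, Ccne1, Ccne2, E2f1 and Dtl) and 1, E2f8, rose. The other members that fell were Ung, Uhrf1, Hells, Casp8ap2 and Chaf1b, a subunit of the chromatin assembly factor behind the fork. Dtl is the adaptor that marks Cdt1 for destruction in S phase. Of the 13 members that fell and have a window, 8 held the E2F words above, against 2 of the 12 that rose. The 13 include Cdc6 and E2f1, whose windows lie inside the genes. This count was made after the calls were seen and is given with no test. Those that rose were 6 of the 7 repair and fork members, Rrm1, Rrm2, Tyms, E2f8, Mcm10, Cdc45, Pold3 and Fen1.

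Ung, the uracil-DNA glycosylase that removes uracil from new DNA (chr5:114130386-114139323), fell furthest. It had 3.35 to 8.30 CPM in mitotic cells of the 6 libraries (median 5.80), against 44.4 to 88.4 CPM (median 57.7) in non-mitotic cells, and the 2 groups stood far apart in every library. The log2 fold change was -3.05 (SE 0.09, adjusted p = 3.09e-14). E2f1, an activator of S phase genes, had 11.7 to 25.6 CPM (median 18.6) in mitotic cells, against 36.7 to 53.0 (median 42.9) in non-mitotic cells, also without overlap (-1.02, SE 0.09, adjusted p = 7.79e-08). Mcm2 (chr6:88883474-88898780) had 46.8 to 61.1 CPM (median 49.9), against 68.6 to 115 (median 98.9), with no overlap (-0.81, SE 0.05). Mcm6 fell by 0.78, Mcm4 by 0.76, Ccne2 by 0.63, Cdc6 by 0.62, Ccne1 by 0.56, Mcm5 by 0.32 and Uhrf1 by 0.31. Ccne1 was lower in 5 of 6 libraries, and Ccne1, Mcm4, Mcm5, Cdc6, Ccne2 and Uhrf1 overlapped between the groups.

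E2f8, an E2F that represses E2F targets late in the cycle (chr7:48866429-48881596), rose furthest. It had 41.1 to 86.9 CPM (median 45.9) in mitotic cells, against 10.9 to 27.4 (median 21.4) in non-mitotic cells, with no overlap (1.65, SE 0.11, adjusted p = 2.56e-09). Mcm10, which joins the helicase at firing, had 43.5 to 77.9 CPM, against 15.6 to 38.7 (1.05, SE 0.11), and the helicase Blm 83.2 to 141 CPM, against 34.9 to 68.7 (1.01, SE 0.06), both without overlap. Rad51ap1 rose by 1.03 and Brip1 by 0.96. Rrm2 rose by 0.56 (SE 0.10, adjusted p = 0.000273) but overlapped, with 32.7 to 59.5 CPM in mitotic and 17.7 to 58.4 CPM in non-mitotic cells. Pcna (-0.04, adjusted p = 0.669) and Slbp (0.07, adjusted p = 0.403) did not pass, nor did Mcm7, Gins1, Gins2, Rfc2, the primase subunit Prim1, the single-strand binding subunit Rpa2, Pola1, Dscc1, Nasp, Wdr76 and Tipin, all within -0.17 to 0.07. Of the further genes 16 rose, with the histone chaperone Asf1b at 1.51 and Tk1 at 1.23, and 5 fell, including Cdt1 by 0.42. The counts moved with the gate and the depth: 9 members rose and 27 fell where mitotic cells needed 6 of the 12 genes, and 27 rose and 8 fell where cells were gated at 10000 UMIs. Rrm2 was at -0.10 under the first setting, and Ccne1, Ccne2 and Uhrf1 at 0.41, 0.32 and 0.15 under the second. The shares of all genes called under these settings are not given here, so the counts cannot be set against them.

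Cells rich in histone transcripts raised most of the set. Of 42 members 31 rose and 6 fell between histone-high and histone-low cells (43 to 1517 and 46 to 1901 cells per library, 11969 genes), where 21.4% of all genes rose and 27.4% fell, with a median of 0.46 beside -0.04. All 8 polymerase and clamp members and all 7 repair and fork members rose, whereas Mcm2, Mcm3, Mcm4, Mcm6, E2f1 and Ung fell. E2f8 had 53.5 to 111 CPM (median 74.5) in histone-high cells, against 5.20 to 23.2 (median 20.9) in histone-low cells, with no overlap (2.20, SE 0.08, adjusted p = 1.21e-15). Rrm2 had 52.5 to 106 CPM (median 83.9), against 17.4 to 40.5 (median 30.8), and Tyms 159 to 241 CPM (median 197), against 51.9 to 81.4 (median 68.6), both without overlap. Their log2 fold changes were 1.61 (SE 0.06, adjusted p = 6.58e-16) and 1.56 (SE 0.05, adjusted p = 2.62e-17).

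Brip1 and Rad51ap1 rose by 1.61 and 1.60, Pcna by 0.69, Slbp by 0.67, Ccne1 by 0.54, Ccne2 by 0.48 and Uhrf1 by 0.34. Cdc6 (0.03, adjusted p = 0.769) and Mcm5 (0.07, adjusted p = 0.319) did not pass. Ung had 9.62 to 24.4 CPM (median 12.6) in histone-high cells, against 47.2 to 78.1 (median 50.9) in histone-low cells (-2.02, SE 0.10, adjusted p = 2.60e-13), with no overlap. E2f1 fell by 0.37, Mcm2 by 0.34, Mcm4 by 0.31 and Mcm6 by 0.26. Of the further genes 31 rose and none fell, with Tk1 at 2.03, Asf1b at 1.75 and the licensing inhibitor Gmnn at 1.01, while Cdt1 (0.10) did not pass.

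**Figure D4:**
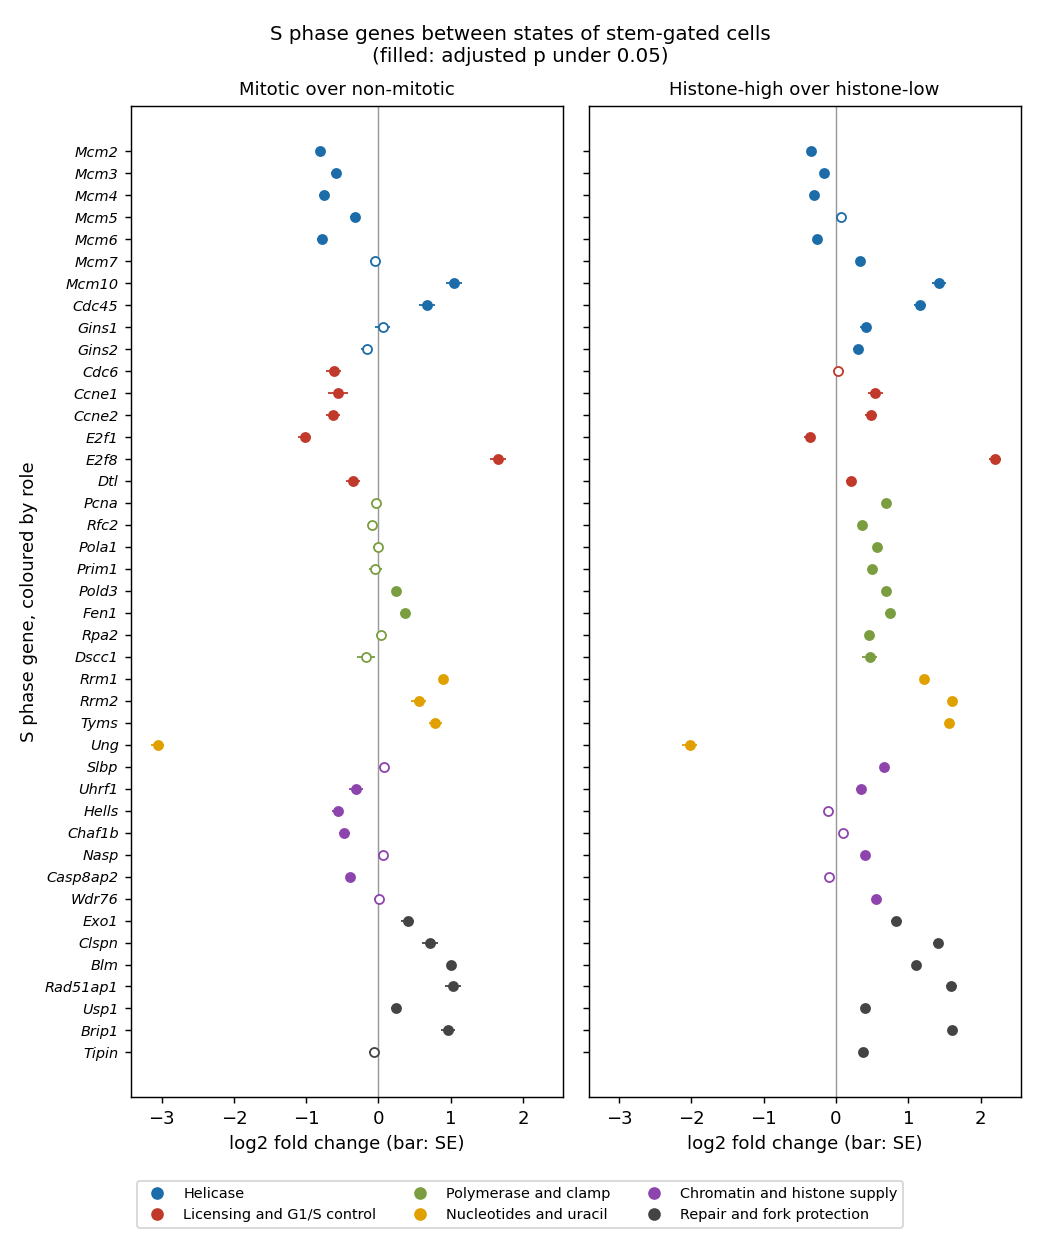
Log2 fold change (x axis, bars are SE) of each of the 42 members (y axis, coloured by role) in mitotic over non-mitotic and in histone-high over histone-low stem-gated cells, with filled points for adjusted p under 0.05. E2f8 stands at 1.65 and 2.20 and Ung at -3.05 and -2.02 in the mitotic and histone comparisons, and Mcm2 to Mcm6 lie left of 0 in the mitotic one.

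The 2 comparisons share stem-gated cells, most histone-high cells and part of the lower groups included, so each was also made without the other mark. Among non-mitotic cells (3 libraries with at least 20 cells in both groups) 37 members rose and none fell in histone-high cells, where 8.17% of all genes rose and 3.63% fell, with Rrm2 at 2.54, E2f8 at 2.46, Tyms at 1.96 and Ung at -0.26 (adjusted p = 0.420). Among histone-high cells (3 libraries) none of the members rose and 30 fell in mitotic cells, where 3.47% of all genes rose and 3.73% fell, with Ung at -2.93, Ccne1 at -1.41, Ccne2 at -1.37 and Rrm2 at -1.15. E2f8, Mcm10, Rad51ap1, Blm and Brip1, which rose in mitotic cells as a whole, were at -0.23, -0.15, -0.19, -0.019 and -0.33 there. Both settings were added after the data were seen.

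P2 bone marrow and spleen could be compared over 3 sources of animals, the pups with their tdTomato-negative cells alone and the pool with cells not sorted by tdTomato. None of the 42 members passed between bone marrow and spleen stem-gated cells in either direction (6 sums, 13794 genes, batch as a term), and 0% of all genes did, with a lowest adjusted p of 0.968 among members. At an unadjusted p below 0.05 stood 447 genes, of which Hells was the 1 member, and DESeq2 called 11 genes. The member log2 fold changes ran between -0.27 and 0.02. With the source as a block 0 members passed, and 0.029% of all genes were called higher and 0% lower. The sources did not point one way: pup 1 had 36.6 member UMIs per 10000 in bone marrow and 45.9 in spleen and pup 2 had 45.3 in bone marrow and 50.7 in spleen, whereas the pool had 49.0 in bone marrow and 43.5 in spleen. Rrm2 had 44.5 CPM in bone marrow and 54.6 in spleen of pup 1, 59.0 in bone marrow and 60.5 in spleen of pup 2, and 76.1 in bone marrow and 54.5 in spleen of the pool. Bone marrow was thus the lower tissue in both pups and the higher one in the pool.

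The bone marrow minus spleen difference was then set between the pups and the pool, a test added because of these signs. The pool gives 1 difference with no replicate, so the spread comes from the 2 pups and the pool is assumed to vary like them. It called 21 members, all lower in the pups, where 892 of 13794 genes (6.47%) were called lower and 582 (4.22%) higher, with 1 residual degree of freedom. Of the 42 members 41 lay below 0, with a median of -0.32, beside 0.00 over all genes. Fen1 (-0.67), Tyms (-0.65), Rrm2 (-0.61), Cdc45 (-0.60) and Gins2 (-0.56) had the largest differences. In the 2 pups alone, with the pup as a block, 29 members were called lower in bone marrow than in spleen and none higher, where 12.2% of all genes were lower and 8.34% higher. That fit was not planned either and also has 1 residual degree of freedom. The mitotic share moved with the difference, being 18.7% in bone marrow and 32.8% in spleen of pup 1, 27.5% in bone marrow and 31.8% in spleen of pup 2, and 40.3% in bone marrow and 35.7% in spleen of the pool. Its part was not tested. Pool and pups also differ in batch, genotype, tamoxifen, sorting by tdTomato and Cell Ranger version, which cannot be told apart.

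**Figure D5:**
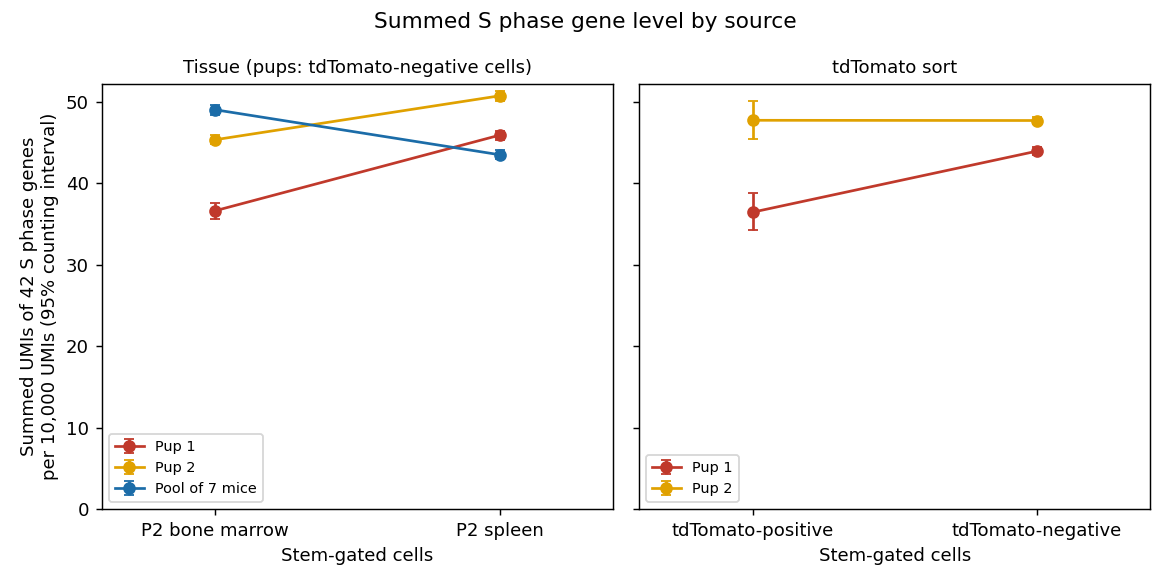
Summed UMIs of the 42 S phase genes per 10000 UMIs (y axis) in stem-gated cells of bone marrow and spleen for each pup (tdTomato-negative cells) and the pool, and of tdTomato-positive and tdTomato-negative cells of each pup (x axis), with exact 95% Poisson bars. Bone marrow lies below spleen in both pups and above it in the pool (49.0 and 43.5).

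tdTomato-positive stem-gated cells were few, 54 in pup 1 and 71 in pup 2, against 1420 and 2213 negative cells. They summed 36.4 member UMIs per 10000 (34.2 to 38.8) in pup 1 and 47.7 (45.5 to 50.05) in pup 2, both tissues together. Negative cells stood at 43.9 and 47.7, so the pups did not move alike. In bone marrow of pup 1, 18 positive cells had 24.0 and 300 negative cells 36.6. In its spleen, 36 positive cells had 42.7 and 1120 negative cells 45.9. Positive cells of pup 2 stood at 47.1 in bone marrow (41 cells) and 48.6 in spleen (30 cells), against 45.3 and 50.7. None of the 42 members passed in either direction and 0% of 14267 genes did (4 sums, lowest adjusted p 0.724 among members), with log2 fold changes of -0.33 to 0.23. At an unadjusted p below 0.05 stood 961 genes, of which Pold3 was the 1 member, and DESeq2 called 19 genes higher and 5 lower. With the pup as a block 0 members passed, beside 0.883% of all genes higher and 1.5% lower. Mcm5 had 78.1 CPM in positive cells of pup 1 and 125 in those of pup 2, against 102 and 115 CPM in negative cells, and Rrm2 had 37.3 and 52.7 CPM, against 52.9 and 59.7. The positive cells of pup 1 were shallower, with a median of 13404.5 UMIs against 21892 in its negative cells. The mitotic gate was passed by 20.4% of positive cells of pup 1 and 22.5% of those of pup 2, against 29.8% and 29.4% of negative cells.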

How the data were processed

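The deposited matrices hold raw UMI counts per gene and cell barcode, made by the authors with Cell Ranger 7.0.0 (P2 pools), 7.1.0 (E19) and 8.0.1 (tubes), per the file headers, on mm10, per the submitters' processing notes. Depth per library, cell filters and thinning are given above. Members and gene lists were chosen with earlier results of these data known. In the tubes, hashtag background was subtracted and the highest hashtag needed 3 times the second and over 50 counts. The reporter is not among the genes counted, so tdTomato status is that of the sort.

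Raw counts were summed per class or state and library (at least 20 cells) and tested with edgeR 4.0.16 (R 4.3.3; filterByExpr, TMM, quasi-likelihood test, Benjamini-Hochberg adjustment over all genes, threshold 0.05). The library was a term, or the batch for bone marrow against spleen. A fold change is relative to TMM scaling, and CPM to all UMIs of a sum. Levels at 5000 UMIs per cell carry exact 95% intervals (Python 3.11.15, numpy 2.4.6, scipy 1.17.1), which cover counting error only. Doublets were kept, and removed with Scrublet (scanpy 1.11.5) as an alternative, beside DESeq2 1.42.0, other scaling, filters, gates, depths, thinned sums and libraries left out. Bone marrow and spleen sums with the same pup number came from 1 animal, per the hashtag labels, so the pup number pairs them. The titles of the pool libraries give 7 merged samples each and do not say that the same mice gave both tissues. Pairing the pool sums as 1 source is thus an assumption. Positive and negative cells of a pup also came from 1 animal.

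Named in each comparison were Mcm5, Pcna, Rrm2, Cdc6, Ccne1, Ccne2, Slbp and Uhrf1, and up to 5 called members with the largest and 5 with the smallest fold change. Each fit was run on simulated data with 100 genes changed 2-fold and 100 changed 4-fold, and most recovered all of them. The B cell comparison recovered 91 of the 2-fold genes, the tdTomato comparison 85 and 99, and the test of pups against pool 95 of the 2-fold genes. From 2 to 15 unchanged genes were also called. The changed genes were drawn from those above the median level, with the spread of each fit and no library effects. Changes below 2-fold were not simulated. Of the 42 members 7 overlap another gene on the same strand, none of them protein-coding.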

Additional observations from a re-analysis of the deposited data

Results flagged for a closer look

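The bone marrow minus spleen difference of the summed S phase level in stem-gated cells (tdTomato-negative ones in the pups) had opposite signs in different sources. The pups stood at -9.26 (pup 1) and -5.38 (pup 2) UMIs per 10000 and the pool at 5.51, and the sign difference itself was not tested on the summed level. Per gene, the test of the pups against the pool called 21 of the 42 members (edgeR's quasi-likelihood test with Benjamini-Hochberg adjustment, lowest adjusted p = 1.31e-06), all with a lower bone marrow to spleen difference in the pups. The pool has no replicate in that test, which was prompted by these signs and has 1 residual degree of freedom, so the pool is assumed to vary like the pups. The mitotic share of stem-gated cells had the same signs, and its part was not tested.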

How the results depend on the processing

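Of the summary values recomputed under the alternatives 215 kept their call or size, 19 counts became smaller and 9 larger by over 1.5 times, 9 levels moved and 1 changed direction. Of the named members' folds 1044 kept their call, 65 lost it, 16 gained one and 18 changed direction. Counts of members under an alternative are mostly given without the share of all genes called there. In the mitotic comparison 14 members higher and 15 lower became 8 and 9 without the library as a term, 27 and 8 with gates at 10000 UMIs, 9 and 27 with a gate of 6 genes and 0 and 30 within histone-high cells, and 24 were lower with gates at 3000 UMIs. The cause was not tested. There, directions changed for Pcna (0.33 at 10000 UMIs, 0.16 with a gate of 3 genes), Rrm2 (-0.10 with 6 genes, -1.15 in histone-high cells), Slbp (-0.36 and -0.41 under the same settings), Ccne1 (0.41), Ccne2 (0.32) and Uhrf1 (0.15) at 10000 UMIs, and E2f8 (-0.23), Mcm10 (-0.15), Rad51ap1 (-0.19), Blm (-0.019) and Brip1 (-0.33) in histone-high cells. The histone comparison gave 18 higher and 1 lower without the library term and 0 lower in non-mitotic cells, where E2f1 (0.61), Mcm2 (0.072), Mcm4 (0.22) and Mcm6 (0.21) changed direction. In the erythroid comparison 1 member was lower with DESeq2 size factors, without tube 2 and with gates at 10000 UMIs. In the granulocyte progenitor comparison 13 were higher without the library term, and 0 lower with gates at 3000 UMIs or thinned sums. In the B cell comparison 5 were higher without the library term, 23 with gates at 3000 UMIs and 1 at 10000 UMIs.

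Leaving out 1 library at a time gave 14 to 16 higher and 14 to 17 lower members in the mitotic comparison, 30 to 31 and 5 to 8 in the histone, 38 to 39 and 0 to 1 in the erythroid, 10 to 23 higher in the granulocyte progenitor and 3 to 13 higher in the B cell comparison. With the source as a replicate block, 0 members were called between bone marrow and spleen and 0 by tdTomato, where all genes gave 126 higher and 214 lower calls. Without the pool the paired fit, which was not planned and has 1 residual degree of freedom, called 29 members lower in bone marrow, and without either pup 0. The ratio to bone marrow was 0.703 for E19, 0.880 for liver and 0.924 for spleen at 3000 UMIs, 0.902, 1.01 and 0.952 for E19, liver and spleen at 10000 UMIs, 0.711 for E19 and 0.779 for liver without thinning, 0.666 for liver with 4 markers and 0.660 for E19 without Pola1. Liver rests on 170 cells, so its values are the least precise.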
